A study of Mus musculus with 6 samples.

Results

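The 10 genes described here encode feedback components of the extracellular signal-regulated kinase (ERK) pathway. They are the dual-specificity phosphatases Dusp1, Dusp4, Dusp5 and Dusp6, the Sprouty genes Spry2 and Spry4, the Sprouty-related genes Spred1 and Spred2, and the ETS transcription factors Etv4 and Etv5. They were taken by symbol from a table of 46078 gene identifiers, and all 10 were among the 12078 tested genes, those averaging 1 CPM or more (counts per 1000000 scaled reads) over the libraries. The 6 libraries come from monolayers of MLE12 cells, a lung epithelial line immortalized from mouse, with 1 library in each group. The groups were wild-type (parental) cells left unscratched, parental cells 24 hours after a scratch with a pipet tip, and cells labelled Lingo1 KO, Lingo2 KO, Lingo3 KO and TROY KO, each 24 hours after a scratch. LINGO proteins are leucine-rich repeat membrane proteins and TROY is a receptor of the tumour necrosis factor family. The labels do not state how the knockouts were made or whether each line is a single clone. All mutant cultures were scratched, so no unscratched mutant culture was compared.

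ERK is activated downstream of growth factor receptors through RAS, RAF and MEK, and it switches on genes that in turn damp the signal. DUSP phosphatases remove the activating phosphates from ERK and related kinases, Sprouty proteins act on the steps between receptor and RAF, and SPRED proteins bring neurofibromin to RAS at the membrane. Etv4 and Etv5 are PEA3 family factors induced by ERK signalling, known in lung from branching growth and, for Etv5, from the upkeep of alveolar type II cells. The transcripts of several of these genes are short-lived and are often read as a record of recent ERK output, although kinase activity was not measured here.

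The start regions of 3 of the phosphatase genes are shown because Dusp1 and Dusp5 were past the size rule given below in the mutant lines, while Dusp6, their cytoplasmic relative, had smaller ratios short of it. Each is the run of 250 bases before the transcription start in RefSeq (GRCm38.p6), written 5′ to 3′ on the strand of the gene. Capitals mark a CRE match (TGACGTCA) in Dusp1 and CArG box matches in Dusp5.
Dusp1: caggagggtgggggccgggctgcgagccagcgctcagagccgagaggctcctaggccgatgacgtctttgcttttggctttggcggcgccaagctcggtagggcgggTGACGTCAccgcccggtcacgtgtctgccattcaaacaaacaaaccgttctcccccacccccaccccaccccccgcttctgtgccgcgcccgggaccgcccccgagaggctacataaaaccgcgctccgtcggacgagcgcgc
Dusp5: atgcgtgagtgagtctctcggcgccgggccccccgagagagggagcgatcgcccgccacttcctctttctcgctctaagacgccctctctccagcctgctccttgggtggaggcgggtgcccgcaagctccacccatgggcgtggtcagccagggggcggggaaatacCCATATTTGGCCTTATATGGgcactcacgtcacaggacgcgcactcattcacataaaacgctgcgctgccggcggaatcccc
Dusp6: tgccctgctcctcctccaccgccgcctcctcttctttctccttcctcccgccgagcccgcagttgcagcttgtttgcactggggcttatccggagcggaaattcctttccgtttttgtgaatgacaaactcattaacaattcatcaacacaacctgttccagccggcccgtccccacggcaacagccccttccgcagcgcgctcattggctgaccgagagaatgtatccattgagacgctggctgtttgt
The windows lie at chr17:26508473-26508722 on the minus strand for Dusp1, at chr19:53528895-53529144 on the plus strand for Dusp5, and at chr10:99262981-99263230 on the plus strand for Dusp6. CRE elements bind CREB family factors, and CArG boxes bind serum response factor. Motifs were searched on both strands of windows from 250 bases before to 50 bases after the start, and RefSeq windows were matched for 7 of the 10 genes, namely Dusp1, Dusp5, Dusp6, Spry2, Spred1, Spred2 and Etv5. The CRE match of Dusp1 spans positions -143 to -136 from the start, and 1.79% of all 32851 promoter windows hold such a match. The CArG matches of Dusp5 lie side by side at -82 to -73 and -72 to -63. A CArG match was found in 1.63% of all windows, and at least 2 matches in 6 windows. The ETS letters CCGGAA, found in 14.9% of windows, occurred among the matched genes in Spry2, at positions 33 to 38. Spry2 also held the Capicua letters TCAATGAA on the opposite strand at -54 to -47, found in 0.749% of windows. Capicua is a repressor that ERK signalling inactivates. The letters TGANTCA for AP-1 (7.81% of windows) and TGAATGAA for Capicua (1.30%) were not in the windows of the 7 matched genes, and the Dusp6 window held none of the searched letters. Dusp4 had no matched window, and a link between these matches and the ratios was not tested.

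Libraries had between 28109825 and 30776294 reads counted in genes. The share of uniquely aligned reads in no counted feature was 7.80% and 8.02% in the parental and between 4.98% and 6.41% in the mutant libraries. Of 7 lung epithelial markers, 6 reached 1 CPM in each library, and Krt18 had 9 to 14 counts. The summed level of these 7 markers was 1130 to 1218 CPM in the parental and 1730 to 1883 CPM in the mutant libraries. Of 6 fibroblast markers, 3 to 5 reached 1 CPM, with a summed level, most of it Dcn, of 2578 to 2824 CPM in the parental and 2745 to 3461 CPM in the mutant libraries. Lum had 0 or 1 count, and Col3a1 had 0 counts in both parental libraries and 62 in the Lingo3 mutant. Of 5 endothelial markers, 1 to 3 reached 1 CPM, with a summed level, most of it Tek, of 95.4 to 103 CPM in the parental and 162 to 188 CPM in the mutant libraries. Cdh5 was at 0 counts in 4 libraries and 20 in the scratched parental library. Kdr and Vwf were also highest there, at 74 and 169 counts, against 12 to 21 and 11 to 37 elsewhere. Of 4 leukocyte markers, Cd68 alone reached 1 CPM, Ptprc had 0 to 3 counts, and the sum was 1.73 to 3.25 CPM. The no-feature share was lower, and the epithelial and endothelial sums higher, in all 4 mutant libraries than in both parental ones. The endothelial sum followed Tek, while Kdr, Vwf and Cdh5 counts were lower in each mutant library than in the scratched parental one. The fibroblast and leukocyte sums were above both parental libraries in Lingo1, Lingo2 and Lingo3, while in TROY the fibroblast sum lay between the parental values and the leukocyte sum below them. The part of these in the results below was not tested. In bulk RNA, fewer cells of a type and less RNA per cell cannot be told apart.

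**Figure D1:**
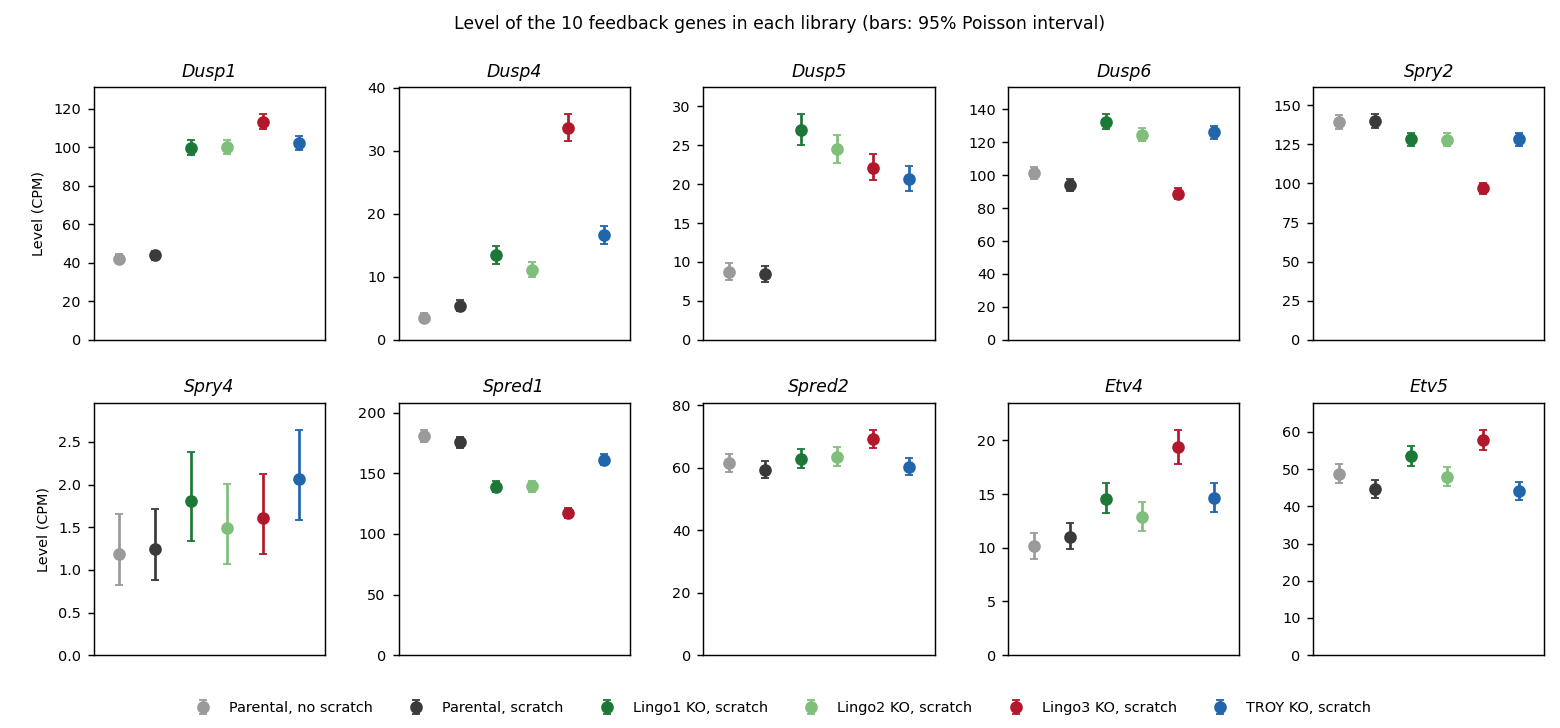
Level in CPM (vertical axes, each from 0) of the 10 genes, 1 point per library, with bars for the 95% Poisson interval of counting error. Dusp1, Dusp4 and Dusp5 lie higher in all 4 mutant libraries than in both parental libraries, and Spry2, Spred1 and Dusp6 lie lowest in the Lingo3 mutant.

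Dusp1, Dusp4 and Dusp5 separated the mutant lines from the parental line, and the other genes moved less. A gene was called higher or lower when the ratio of its scaled counts was at least 2-fold and the near bound of the 95% interval of that ratio was past 1.5-fold. The intervals cover counting error only. The reads carry no molecular identifiers and may repeat one molecule, so the intervals may be too narrow even for counting error. With 1 library per group there was no replicate error, so a ratio compares 2 libraries and no p-value was computed. Genotype, clone and culture cannot be told apart.

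Dusp1, an early response phosphatase of the nucleus that acts on p38, JNK and ERK (ENSMUSG00000024190, chromosome 17, 26505590 to 26562128, GRCm38), measured 42.1 CPM in parental cells left unscratched and 43.8 CPM in scratched ones. It stood at 99.8 CPM in the Lingo1, 100.1 CPM in the Lingo2, 113 CPM in the Lingo3 and 102 CPM in the TROY mutant. The parental libraries lay together, the mutants lay together, and the lowest mutant was 2.28-fold above the highest parental library. Against the scratched parental library Dusp1 was 2.28-fold higher (95% interval 2.13 to 2.44) in the Lingo1, 2.29-fold (2.14 to 2.44) in the Lingo2, 2.59-fold (2.43 to 2.76) in the Lingo3 and 2.33-fold (2.18 to 2.49) in the TROY mutant. The Lingo1, Lingo2 and TROY mutants could not be told apart in Dusp1 at this depth, while Lingo3 was 1.11 times TROY (1.06 to 1.17). The annotated span of Dusp1 reaches past its RefSeq start and overlaps Ergic1 on the opposite strand, and the use of strand in counting is not stated, so reads from a shared stretch could have been assigned to either gene or to none. Ergic1 stood at 117 and 119 CPM in the parental and 131 to 137 CPM in the mutant libraries.

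Dusp5, an inducible nuclear phosphatase that acts on ERK (ENSMUSG00000034765, chromosome 19, 53529109 to 53542431), measured 8.69 CPM in parental cells left unscratched and 8.42 CPM in scratched ones. It stood at 27.0 CPM in the Lingo1, 24.5 CPM in the Lingo2, 22.1 CPM in the Lingo3 and 20.7 CPM in the TROY mutant. All 4 mutants lay above both parental libraries, by 2.38-fold at the closest. Dusp5 was 3.20-fold higher (2.78 to 3.71) in the Lingo1, 2.91-fold (2.52 to 3.37) in the Lingo2, 2.63-fold (2.28 to 3.05) in the Lingo3 and 2.46-fold (2.12 to 2.85) in the TROY mutant. Neighbours in this order did not differ beyond counting error, but the ends did, TROY being at 0.767 times Lingo1 (0.688 to 0.854), short of the size rule. An antisense transcript, AC137853.2, is annotated over Dusp5.

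Dusp4, an inducible nuclear phosphatase of ERK and JNK (ENSMUSG00000031530, chromosome 8, 34807297 to 34819894), had the widest range of the 10 genes. It measured 3.49 CPM (100 counts) in parental cells left unscratched and 5.42 CPM (165 counts) in scratched ones. It stood at 11.1 CPM in the Lingo2, 13.4 CPM in the Lingo1, 16.6 CPM in the TROY and 33.6 CPM (1025 counts) in the Lingo3 mutant. Every neighbouring pair in this order of 6 libraries differed beyond counting error, with Lingo3 at 9.63 times the unscratched parental library. Against the scratched parental library Dusp4 was 2.05-fold higher (1.69 to 2.49) in the Lingo2, 2.47-fold (2.05 to 2.98) in the Lingo1, 3.06-fold (2.56 to 3.67) in the TROY and 6.20-fold (5.25 to 7.35) in the Lingo3 mutant. With total counts as the scaling, the Lingo2 ratio was 1.95 and no longer past the rule.

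Dusp6, a cytoplasmic phosphatase selective for ERK (ENSMUSG00000019960, chromosome 10, 99263231 to 99267489), did not follow the other phosphatase genes. It measured 102 CPM in parental cells left unscratched and 94.0 CPM in scratched ones, 133 CPM in the Lingo1, 125 CPM in the Lingo2 and 126 CPM in the TROY mutant, and 88.6 CPM in the Lingo3 mutant. Lingo1, Lingo2 and TROY lay above both parental libraries and Lingo3 below both. The ratios to the scratched parental library were 1.41 (1.34 to 1.48) for Lingo1, 1.33 (1.26 to 1.39) for Lingo2, 1.34 (1.28 to 1.41) for TROY and 0.943 (0.894 to 0.994) for Lingo3, none of them past the size rule. The Lingo3 ratio to the unscratched parental library was 0.873 (0.828 to 0.920).

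**Figure D2:**
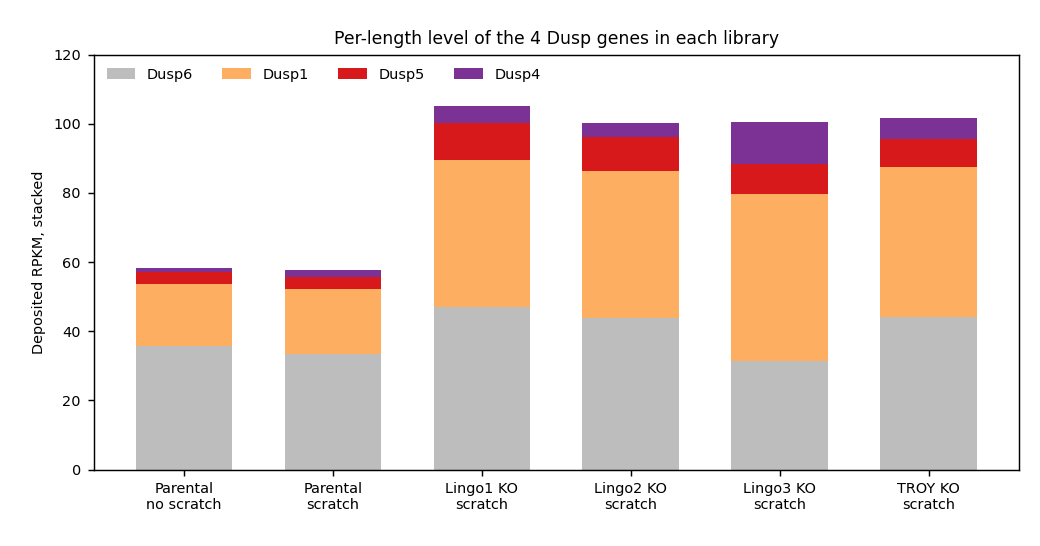
Deposited RPKM values of Dusp6, Dusp1, Dusp5 and Dusp4 (vertical axis from 0), stacked for each of the 6 libraries. The sum is 57.6 to 58.4 RPKM in the parental and 100.1 to 105 RPKM in the mutant libraries, and the Lingo3 bar has the smallest Dusp6 and the largest Dusp4 part.

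Per length, in the RPKM values (reads per kilobase of transcript, scaled to sequencing depth) that the authors deposited, the makeup of these phosphatase transcripts differed between the lines, as the stacked plot of RPKM shows. The 4 Dusp genes summed to 58.4 RPKM in the unscratched and 57.6 RPKM in the scratched parental library. They summed to 105, 100.1, 101 and 102 RPKM in the Lingo1, Lingo2, Lingo3 and TROY mutants. Dusp6 made up 61.3% and 58.0% of the sum in the parental libraries, between 43.5% and 44.6% in the Lingo1, Lingo2 and TROY mutants, and 31.1% in the Lingo3 mutant. Dusp1 made up 30.7% and 32.7% in the parental libraries, between 40.6% and 42.5% in those 3 mutants, and 48.0% in the Lingo3 mutant. Dusp4 made up 2.16% and 3.42% in the parental libraries, between 3.99% and 5.85% in those 3 mutants, and 12.05% in the Lingo3 mutant. The summed RPKM of the nuclear enzymes Dusp1, Dusp4 and Dusp5 was 0.633 and 0.723 times that of Dusp6 in the parental libraries, between 1.24 and 1.30 times in those 3 mutants and 2.21 times in Lingo3. The Lingo3 library reached a sum close to that of the other mutants with a smaller Dusp6 share and larger Dusp1 and Dusp4 shares.

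Spry2, an inhibitor of receptor tyrosine kinase signalling (ENSMUSG00000022114, chromosome 14, 105891947 to 105896819), had the highest RPKM of the 10 genes in 5 libraries, Dusp1 being first in Lingo3. It stood at 139 and 139.9 CPM in the unscratched and scratched parental libraries, at 128 CPM in each of the Lingo1, Lingo2 and TROY mutants, and at 97.0 CPM in the Lingo3 mutant. The ratios to the scratched parental library were 0.917 (0.877 to 0.959), 0.916 (0.876 to 0.957), 0.917 (0.877 to 0.958) and 0.693 (0.661 to 0.726) for Lingo1, Lingo2, TROY and Lingo3. All 4 mutants lay below both parental libraries, and none of the ratios was past the size rule.

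Spred1, which recruits neurofibromin to RAS (ENSMUSG00000027351, chromosome 2, 117121374 to 117182279), measured 181 CPM in parental cells left unscratched and 175 CPM in scratched ones. It stood at 161 CPM in the TROY, 139 CPM in each of the Lingo1 and Lingo2, and 117 CPM in the Lingo3 mutant. All 4 mutants lay below both parental libraries, with ratios to the scratched one of 0.919 (0.884 to 0.956) for TROY, 0.792 (0.759 to 0.825) for Lingo1, 0.793 (0.761 to 0.827) for Lingo2 and 0.669 (0.641 to 0.698) for Lingo3. None was past the size rule.

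Spred2, the close relative of Spred1 (ENSMUSG00000045671, chromosome 11, 19924375 to 20024026), varied least of the 10 genes. Its highest level, 69.1 CPM in the Lingo3 mutant, was 1.16 times its lowest, 59.4 CPM in the scratched parental library, and the other 4 libraries stood between 60.4 and 63.6 CPM. Only Lingo3 differed from its neighbour in the order beyond counting error. Spry4, a second Sprouty gene (ENSMUSG00000024427, chromosome 18, 38586247 to 38601415), was scarce, with 34 and 38 counts in the unscratched and scratched parental libraries and 50, 42, 49 and 62 counts in the Lingo1, Lingo2, Lingo3 and TROY mutants. The levels ran from 1.19 to 2.06 CPM, and no neighbouring pair in that order differed beyond counting error. The TROY ratio to the scratched parental library was 1.65 (1.08 to 2.54), so a 2-fold difference was neither shown nor left out at this depth.

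Etv4, an ETS factor of the PEA3 family (ENSMUSG00000017724, chromosome 11, 101769742 to 101785371), measured 10.1 CPM in parental cells left unscratched and 11.05 CPM in scratched ones. It stood at 12.8 CPM in the Lingo2, 14.6 CPM in each of the Lingo1 and TROY mutants, and 19.4 CPM in the Lingo3 mutant. The mutants lay above both parental libraries, and Lingo3 was the only library to differ from its neighbour in the order beyond counting error, at 1.32 times TROY (1.17 to 1.5005). The Lingo3 ratio to the scratched parental library was 1.75 (1.53 to 2.01), short of 2-fold, and the ratios of Lingo1 and TROY were 1.32 (1.14 to 1.53) and 1.32 (1.15 to 1.53). That of Lingo2 was 1.16 (0.9996 to 1.35). Etv5 (ENSMUSG00000013089, chromosome 16, 22381309 to 22439719) stood at 48.7 and 44.7 CPM in the unscratched and scratched parental libraries. It stood at 53.5 CPM in the Lingo1, 47.9 CPM in the Lingo2, 57.8 CPM in the Lingo3 and 44.0 CPM in the TROY mutant. The groups overlapped for Etv5, and its largest ratio to the scratched parental library was 1.29 (1.204 to 1.389), in Lingo3.

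**Figure D3:**
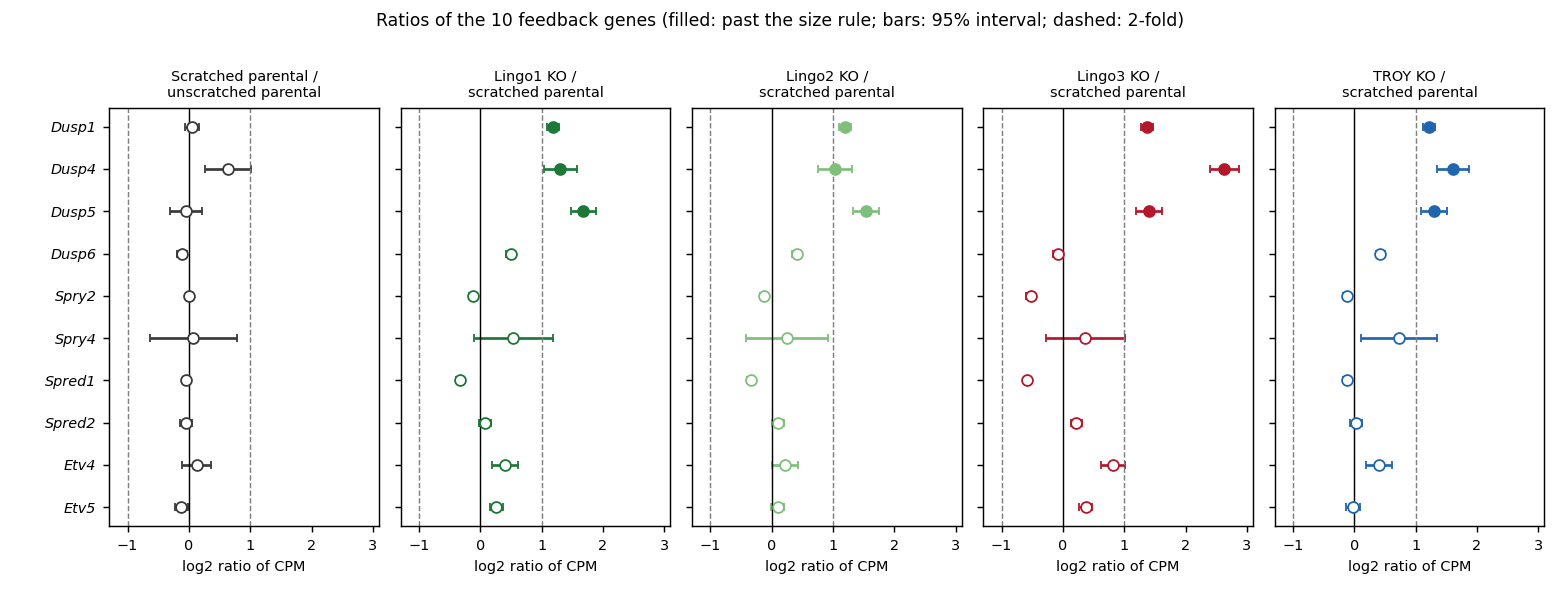
The log2 ratio of CPM (horizontal axes) of the 10 genes in the 5 comparisons, with bars for the 95% interval of counting error, dashed lines at 2-fold and filled points for genes past the size rule. Dusp1, Dusp4 and Dusp5 are filled in all 4 mutant panels, and no point is filled in the panel of the scratch in the parental line.

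The scratch comparison asked which transcripts differed 24 hours after wounding in the parental line. None of the 10 genes was past the size rule, where 0.0828% of the 12078 tested genes were, and the median log2 ratio of the 10 was -0.02, beside -0.01 over all tested genes. Dusp4 had the largest ratio, 1.55 (1.21 to 2.01), and 0.604% of tested genes lay as high. The ratio of Dusp6 was 0.926 (0.879 to 0.975) and that of Etv5 0.918 (0.852 to 0.990). The other 7 genes had ratios between 0.964 and 1.09, with intervals that held 1. An early induction that had passed by 24 hours could not be seen in this design.

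The comparison of each mutant with scratched parental cells asked which transcripts differ in a wounded monolayer labelled as lacking the gene. In each of the 4 comparisons 3 of the 10 genes were higher and none lower. The 10 genes were chosen with earlier results of these data known, so their count beside the shares that follow is a description. The share of all tested genes called higher was 1.95% for Lingo1, 2.12% for Lingo2, 4.63% for Lingo3 and 1.06% for TROY, and the share called lower was 1.67%, 1.38%, 2.56% and 1.18%. The 4 comparisons share 1 parental library. The median log2 ratio of the 10 genes was 0.45, 0.23, 0.37 and 0.41 in the Lingo1, Lingo2, Lingo3 and TROY mutants, beside 0.01, 0.02, 0.01 and 0.02 over all tested genes. Against the unscratched parental library, Dusp1, Dusp4 and Dusp5 were again the 3 genes past the rule in each mutant, where 1.8%, 1.84%, 4.31% and 1.24% of tested genes were higher. The Dusp4 ratios to that library were 3.84 (3.07 to 4.83), 3.18 (2.53 to 4.03), 9.63 (7.84 to 11.95) and 4.75 (3.83 to 5.95) for Lingo1, Lingo2, Lingo3 and TROY, so the size for Dusp4 depends on which parental library is used.

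The position of the 3 genes among all tested genes differed between lines. For Dusp5, 0.588% of tested genes had as high a ratio in the Lingo1 comparison, 0.886% in Lingo2, 2.58% in Lingo3 and 0.687% in TROY. For Dusp4 the shares were 1.28%, 2.43%, 0.563% and 0.356% in the same order, and for Dusp1 1.59%, 1.63%, 2.69% and 0.836%. At the other end, 8.19% of tested genes had as low a ratio as Spred1 and 9.50% as low as Spry2 in the Lingo3 comparison, and for Dusp6 in Lingo1 8.88% had as high a ratio. When a group is only asked not to overlap, 5 of the 10 genes (Dusp1, Dusp4, Dusp5, Spry4 and Etv4) lay higher in all 4 mutant libraries than in both parental ones, beside 24.2% of tested genes. For Spry4 in Lingo1, Lingo2 and Lingo3 and Etv4 in Lingo2, the interval of the ratio to the scratched parental library held 1. Another 2 (Spry2 and Spred1) lay lower, beside 21.9% of tested genes.

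**Figure D4:**
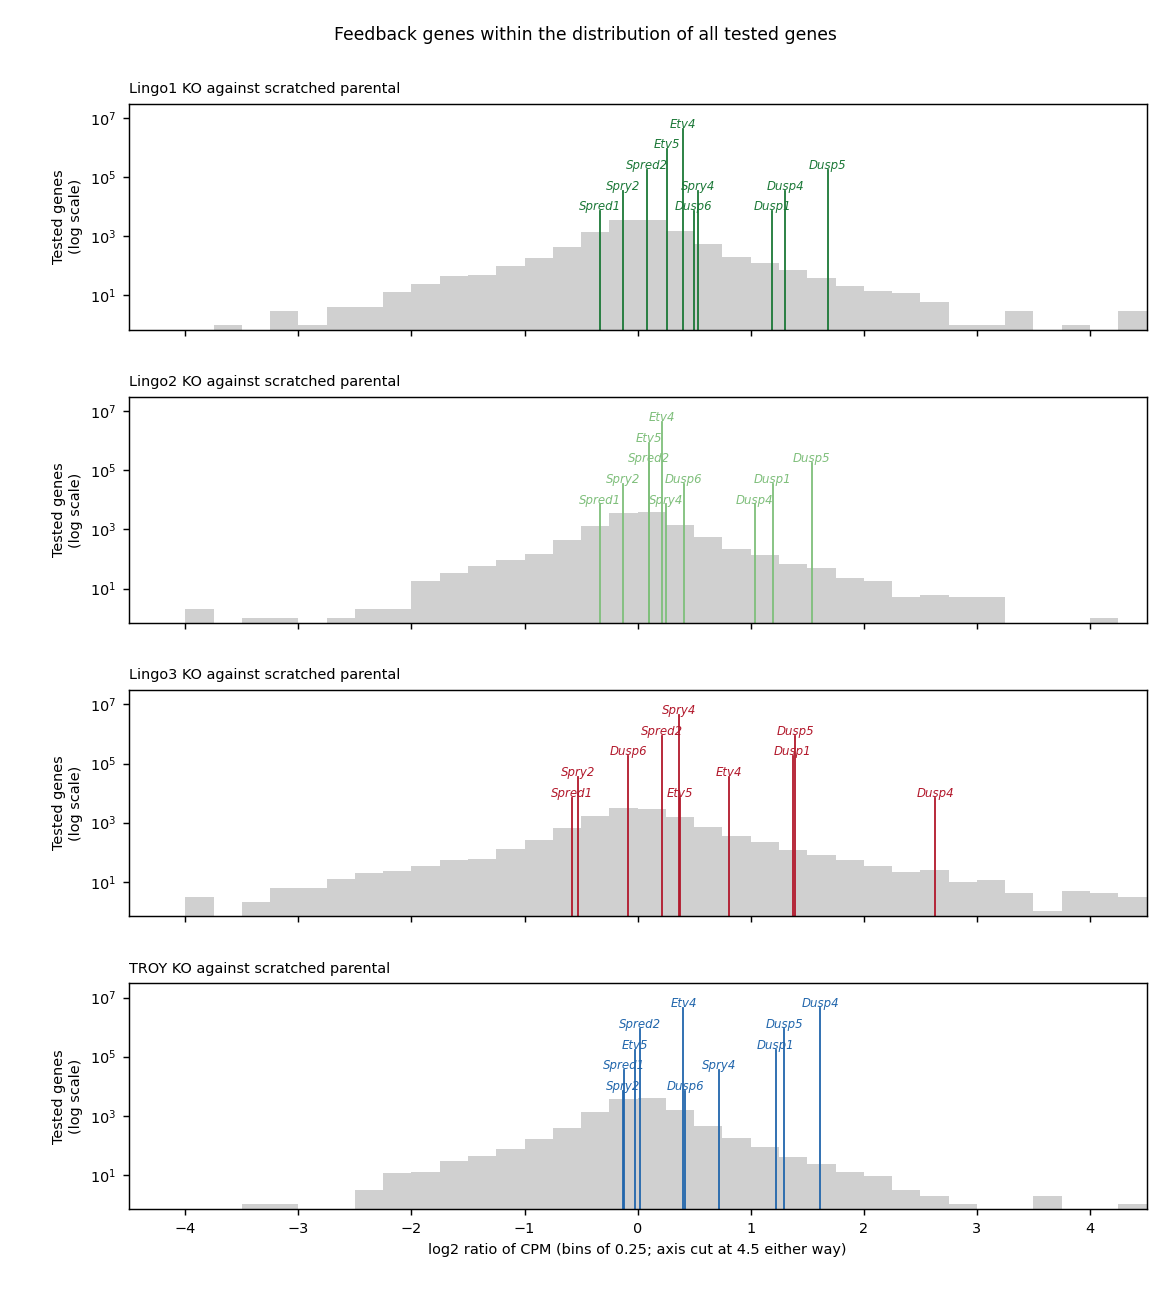
Number of tested genes (vertical axes, log scale) by log2 ratio of CPM (horizontal axis, bins of 0.25) in the 4 mutant comparisons, with a line at the ratio of each of the 10 genes, whose height has no meaning. Dusp1, Dusp4 and Dusp5 lie in the right tail of each panel, and the other 7 genes lie nearer the centre.

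Direct comparison of the mutant lines does not use the parental libraries. Dusp4 was the only one of the 10 genes past the size rule between any of the 6 pairs. It was 2.51-fold higher (2.23 to 2.84) in Lingo3 than in Lingo1, where 1.65% of tested genes were past the rule, and 3.03-fold higher (2.66 to 3.45) in Lingo3 than in Lingo2, where 1.61% were. It was 2.03-fold lower (1.82 to 2.26) in TROY than in Lingo3, where 2.61% were. None of the 10 genes was past the rule between Lingo1 and Lingo2 (0.0166% of tested genes), Lingo1 and TROY (0.215%) or Lingo2 and TROY (0.364%).

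The Lingo3 library also stood at an end of the order for other genes. It had the lowest Dusp6, Spry2 and Spred1 and the highest Dusp1, Dusp4, Spred2, Etv4 and Etv5 of the 5 scratched libraries, in each case beyond counting error against all 4 others. Dusp6 in Lingo3 was at 0.668 times Lingo1 (0.635 to 0.702), and 2.05% of tested genes had as low a ratio in that pair. Spry2 was at 0.756 times Lingo1 (0.720 to 0.794), with 4.30% as low, and Spred1 at 0.845 times (0.807 to 0.884), with 10.7% as low. In the same pair 0.712% of tested genes had as high a ratio as Dusp4 and 7.06% as high as Etv4. For Dusp1, Spred2 and Etv5 the shares as high were 19.9%, 25.3% and 28.7%. The share of all tested genes for which Lingo3 stood at an end of the order was not computed. Between Lingo1 and Lingo2 the largest difference among genes with over 100 counts was that of Dusp4, at 0.830 times (0.712 to 0.967).

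The other genes of the pathway were described from 6 lists, which were chosen with earlier results of these data known. The ERK cascade itself, from adaptors and RAS to RSK kinases, had 25 tested genes and none past the rule in any of the 5 comparisons. Its median log2 ratios in the mutants were between 0.00 and 0.07. Against the unscratched parental library Rps6ka2, an RSK kinase, was past the rule in TROY. The extremes were Sos2, a RAS exchange factor, at 0.654 times in Lingo3, and Rps6ka2 at 1.94 times in TROY. Among 6 tested of 8 further Dusp genes none was past the rule, with mutant ratios between 0.824 (Dusp3 in Lingo3) and 1.37 (Dusp8 in Lingo3). The list's median log2 ratios were 0.12, 0.11, 0.14 and 0.03 in Lingo1, Lingo2, Lingo3 and TROY.

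The further family members were Spry1, Spred3 and Etv1. Spry1, a Sprouty gene, had ratios to the scratched parental library of 0.791 (0.725 to 0.864), 0.703 (0.641 to 0.769), 0.560 (0.509 to 0.615) and 0.801 (0.735 to 0.873) in Lingo1, Lingo2, Lingo3 and TROY. Spred3 had ratios of 0.578, 0.570, 0.564 and 0.704. Neither was past the size rule there, though Spry1 in Lingo3 was past it against the unscratched parental library. Both lay under the scratched parental level in all 4 mutants, as Spry2 and Spred1 did. Etv1, another PEA3 factor, was 2.68-fold lower (1.51 to 4.98) in TROY, on 17 against 46 counts, and was not past the rule in the other mutants. That call was lost against the unscratched parental library. The median log2 ratio of these 3 genes was -0.69, -0.51, -0.83 and -0.51 in Lingo1, Lingo2, Lingo3 and TROY.

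Of 5 further feedback regulators and repressors, 2 were higher in Lingo3, beside 4.63% of tested genes, and none in the other mutants. Errfi1, an inhibitor of the EGF receptor, was 2.78-fold higher (2.52 to 3.08) in Lingo3, and Il17rd, a membrane antagonist of FGF and RAS signalling, 2.28-fold (1.88 to 2.77). Short of the rule, Errfi1 was at 1.64, 1.76 and 1.56 times the scratched parental level in Lingo1, Lingo2 and TROY, while Il17rd was at 0.879 times in TROY. Il17rd was also past the rule between Lingo3 and each of the other mutants, and Errfi1 between Lingo3 and none of them. The list's median log2 ratios were 0.13, -0.02, 0.39 and 0.04. Cic, which encodes Capicua, and the ETS repressor gene Erf were not past the rule.

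Among 15 tested ERK target genes outside the 10, 6 were higher in Lingo1, 4 in Lingo2, 7 in Lingo3 and 5 in TROY, and none was lower. Of all tested genes, 1.95%, 2.12%, 4.63% and 1.06% were called higher in the same order. The ratios ran from 1.31 (Phlda1) to 9.68 (Fosb) in Lingo1, from 1.30 (Myc) to 8.89 (Fosb) in Lingo2, from 1.34 (Plaur) to 11.2 (Fosb) in Lingo3 and from 1.16 (Phlda1) to 12.5 (Fosb) in TROY. The AP-1 genes Fos and Fosb, the zinc finger gene Egr2 and the stress-responsive gene Atf3 were higher in each mutant. Against the unscratched parental library 4 were higher in TROY, the call of Junb being lost. The list's median log2 ratios were 0.70, 0.62, 0.96 and 0.71. Of 11 tested receptors and ligands upstream of ERK, Areg, a ligand of the EGF receptor, was higher in each mutant, at 2.27-fold, 2.67-fold, 2.27-fold and 2.37-fold, on 44 counts in the scratched parental library. Against the unscratched one, also at 44 counts, Areg was past the rule in Lingo2 and TROY only. Of the other ligands, Ereg and Hbegf were higher in Lingo1 and Lingo2, and Tgfa in Lingo3. Against the unscratched library Hbegf was past the rule in none of the mutants, and Ereg was past it in Lingo1, Lingo2 and TROY. Egfr, its receptor, was lower by 2.07-fold, 2.08-fold and 2.73-fold in Lingo1, Lingo2 and Lingo3, and at 0.583 times, short of the rule, in TROY.

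The genes whose profile over the 6 libraries was nearest to each called gene were sought among 10002 genes averaging 5 CPM or more, by the root mean square difference of centred log2(CPM + 1) values. For Dusp1 they were Klf10, a zinc finger early response gene, at a distance of 0.0584, Slc1a4, a neutral amino acid transporter gene (0.0938), and Acox2, a peroxisomal oxidase gene (0.0983). For Dusp5 they were the plakophilin gene Pkp1 (0.0913), the cardiac troponin gene Tnnt2 (0.0957) and the laminin gene Lamb3 (0.0978). For Dusp4 the nearest were Fam19a4 (0.265), the VEGF receptor gene Flt1 (0.275) and the secreted Wnt modulator gene Sfrp2 (0.290), so no gene followed Dusp4 as closely as Klf10 followed Dusp1. Klf10 stood at 25.3 and 26.3 CPM in the unscratched and scratched parental libraries and at 61.7, 58.6, 69.9 and 56.0 CPM in the Lingo1, Lingo2, Lingo3 and TROY mutants. With 6 libraries that fall into a parental and a mutant set, such likeness is a description of these libraries.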

How the data were processed

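The members and gene lists were chosen with earlier results of these data known. The authors deposited raw read counts per Ensembl gene. Per the submitters' processing notes, the tools were HTSeq, STAR, edgeR and Trimmomatic 0.39, on build GRCm38. RPKM values and log2 ratios in a second table were also deposited by the authors, with the unit inferred from their proportion to the counts (SD 0.000767 log2 units over 7624 genes). The log2 ratios differed from those computed here by at most 0.0240 for the 10 genes. The 5 HTSeq summary lines (no feature 4.98% to 8.02%) stayed out of library sizes.

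Counts were scaled with TMM (edgeR 4.0.16, R 4.3.3) to CPM. Symbols were matched for 45143 of 46078 identifiers, and positions come from GENCODE M21. Level intervals are exact Poisson and ratio intervals Clopper-Pearson, at 95%, by scipy 1.17.1; the size rule was tested on simulated data. The named genes are the 10 members, up to 4 called genes per list, and the 3 nearest profiles per called member. Further genes are named as the extremes of a list or as family members, chosen after their values were seen. Spry3 was not matched. Alternatives were total counts, DESeq2 1.42.0 size factors, other size rules, the deposited RPKM, the unscratched control and other filters.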

Additional observations from a re-analysis of the deposited data

How the results depend on the processing

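No paired analysis was possible because each group has 1 library. The number of the 10 genes past the size rule in each comparison was the same with DESeq2 size factors and, for the mutants, the unscratched control. The deposited RPKM ratios were asked only to be at least 2-fold, with no interval, and gave the same numbers. They are in proportion to the same counts, so they are not a separate check. With total counts the number past the rule fell from 3 to 2 in Lingo2, where Dusp4 had a ratio of 1.95. With 1.5-fold and a near bound past 1.2-fold, 1 gene (Dusp4) passed in the scratch comparison, beside 0.273% of tested genes called higher by that rule, and 4 in Lingo3, beside 10.6%. With 3-fold and a near bound past 2-fold, 1 gene passed in Lingo1 (Dusp5), 0 in Lingo2, 1 in Lingo3 and 1 in TROY (Dusp4 in both), beside 0.604%, 0.687%, 1.9% and 0.273% of tested genes called higher, as the stricter rule asks for more. The share of all genes called in the scratch comparison was 0.732% with no filter on low counts and 0.0193% with a mean of at least 5 CPM. These shares count higher and lower calls together. With the filter of 1 CPM they were 3.62% in Lingo1, 3.5% in Lingo2, 7.19% in Lingo3 and 2.24% in TROY. With 5 CPM they fell to 2% in Lingo1, 1.79% in Lingo2, 4.46% in Lingo3 and 1.14% in TROY, and the cause was not tested. Of the 50 member ratios, 9 left their interval with total counts and 12 of 40 with the unscratched control, and no called ratio changed direction. Depth limits Spry4, with 34 to 62 counts.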

Other observations

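Dusp2, an inducible nuclear phosphatase gene of the same family, fell below the filter of 1 CPM and so was not among the tested genes. It had 7 counts in the unscratched and 12 in the scratched parental library, and 10, 14, 29 and 7 counts in the Lingo1, Lingo2, Lingo3 and TROY mutants. The Lingo3 level was 0.951 CPM (95% Poisson interval 0.637 to 1.37), and its ratio to the scratched parental library was 2.41 (1.19 to 5.19), short of the size rule. The TROY ratio was 0.590 (0.197 to 1.62). Dusp2 was chosen for this after its values were seen.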
